A study of Mus musculus with 10 samples.

Results

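Activator protein 1 (AP-1) transcripts were examined in hearts of Rit1 M90I/+ mice, which carry 1 copy of a Rit1 allele that causes Noonan syndrome in people. The transcripts are those of Fos, Fosb, Fosl1, Fosl2, Jun, Junb, Jund, Atf3 and Maff. They were taken by gene name from the deposited table, which held a row for each of the 9 among 54532 genes. Fos, Fosb, Fosl1 and Fosl2 are the Fos family, and Jun, Junb and Jund the Jun family. FPKM is fragments per kilobase of gene model, scaled by 1 factor for each library. Of the 9 genes, 8 had a mean of at least 0.5 FPKM and entered the test between groups, with 12602 genes in all. Fosb was below that level and was tested separately. In the GRCm38 coordinates of the deposited table the Fos family lies at chr12:85473890-85477273 (Fos), chr7:19302696-19310051 (Fosb), chr19:5447703-5455945 (Fosl1) and chr5:32135801-32157842 (Fosl2). The Jun family lies at chr4:95049034-95052222 (Jun), chr8:84974484-84978718 (Junb) and chr8:70698949-70700616 (Jund). Atf3 spans chr1:191170296-191218039 and Maff chr15:79346621-79359076.

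The hearts came from 5 mice given vehicle control and 5 given trametinib, an allosteric inhibitor of the kinases MEK1 and MEK2 (MEKi). Treatment in both groups began when the mice were 4 weeks old and went on for 20 weeks. Trametinib was given at 1 mg/kg daily, and the last dose came 2 hours before the mice were killed. Every mouse in both groups carried the Rit1 M90I/+ genotype, so no wild-type heart gives a baseline here. The allele was switched on by a cytomegalovirus-Cre deleter transgene, which acts in all tissues, and whole-heart RNA mixes cardiomyocytes with vascular, stromal and blood cells. In such bulk RNA, fewer cells of a type and less RNA per cell cannot be told apart.

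AP-1 is a dimer of basic leucine zipper proteins. Jun proteins can pair with themselves or with Fos proteins, whereas Fos proteins need a Jun partner to bind DNA. Many of these genes are immediate early genes: growth factors, stretch and stress switch them on within minutes, partly through the MEK and ERK kinases that act on ternary complex factors at the Fos promoter. In heart muscle they are known for their induction by pressure load and by hypertrophic agonists. MEK inhibition thus acts upstream of genes in this group, and the comparison asks whether their transcripts differed after the long treatment.

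Several of these promoters carry letters like those that such bZIP dimers are known to recognise. RefSeq promoters of GRCm38.p6 were found for 8 of the 9 genes, all but Fosl1. The 120 bases before the annotated start are shown, 5′ to 3′ on the strand of the gene, for Fos, Fosb, Atf3 and Jun and for the second of 3 Maff starts. They are examples of windows that contain TGACG, the core of the cAMP response element, or TGANNTCA, in which N is any base. Junb, Jund and the third Maff start contain such letters too and are not printed. The capitals mark those letters, on either strand, and TATAAA.
Fos (chr12:85473770-85473889, plus strand): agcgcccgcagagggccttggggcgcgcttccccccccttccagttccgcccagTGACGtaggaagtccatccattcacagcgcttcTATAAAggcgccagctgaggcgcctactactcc
Fosb (chr7:19310046-19310165, minus strand): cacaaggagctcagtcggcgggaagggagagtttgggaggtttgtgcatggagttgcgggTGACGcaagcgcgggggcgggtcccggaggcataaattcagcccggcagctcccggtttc
Atf3 (chr1:191183334-191183453, minus strand): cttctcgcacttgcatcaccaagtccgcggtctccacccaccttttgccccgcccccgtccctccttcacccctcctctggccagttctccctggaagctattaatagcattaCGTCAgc
Jun (chr4:95052223-95052342, minus strand): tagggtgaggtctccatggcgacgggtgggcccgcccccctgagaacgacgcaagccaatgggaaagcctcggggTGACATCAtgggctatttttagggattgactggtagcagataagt
Maff, second start (chr15:79347400-79347519, plus strand): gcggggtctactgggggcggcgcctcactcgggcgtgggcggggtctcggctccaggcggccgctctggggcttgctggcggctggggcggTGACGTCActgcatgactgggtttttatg

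TGACG began 66 bases before the start in Fos, 60 in Fosb and 106 in Junb. In Atf3 it lay on the opposite strand, 7 bases before the start. The Jun match to TGANNTCA began 45 bases before the start and the Maff match 29 bases before the second start. The third Maff start has the same 8 letters as Jun, TGACATCA, also 45 bases upstream. In Jund the match, TGAAATCA, began 61 bases before the start. Of these matches only TGACGTCA, at the second Maff start, reads the same on both strands. Searched on both strands of the whole promoter entry, from 250 bases before to 50 after the start, TGACG was present for 5 of the 8 genes (Fos, Fosb, Junb, Atf3 and Maff) and in 20.8% of all 32851 promoter entries. TGANNTCA was present for 3 of the 8 (Jun, Jund and Maff) and in 14.1% of all entries. Where the letters are TGACGTCA, as in Maff, both searches count the same bases. The AP-1 site itself, TGANTCA, was in none of the 8 and in 7.81% of all entries. The Maff gene had 3 entries to search and the others 1, and a match in these windows is only a description of the letters. The deposited gene models of Atf3, Jund and Fosl2 begin 34706, 1210 and 671 bases from the RefSeq starts searched, and that of Maff begins 899 and 1781 bases from the second and the third start, so those windows are not at the start of the deposited model.

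Between 13647167 and 16659254 fragments per vehicle heart and between 14868373 and 18474002 per MEKi heart were assigned to genes. The sex-linked transcripts split the hearts exactly as treatment did. Xist, the transcript of the inactive X chromosome, had at most 2 fragments in any vehicle heart and from 1456 to 2199 in MEKi hearts, whereas Y-linked Ddx3y had from 814 to 901 in vehicle hearts and 0 in every MEKi heart. This is the pattern of male vehicle hearts and female MEKi hearts. Treatment and the sex that these transcripts point to therefore cannot be told apart in any result given here, the AP-1 values included. Cardiomyocyte markers were abundant in every heart (8 of 8 tested, summed level 16162 to 22020 FPKM). Vehicle hearts 4 and 5 carried far more red cell RNA (23639 and 25874 FPKM) than the other 8 hearts (2899 to 7386 FPKM). Rit1 itself averaged 14.6 ± 1.53 FPKM (SD, n = 5) with vehicle and 19.0 ± 2.496 (SD, n = 5) with MEKi, and this difference did not pass the test (limma adjusted p = 0.445).

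No AP-1 transcript passed the test between vehicle and MEKi hearts after adjustment over all genes. Of the 8 tested, 0 had an adjusted p under 0.05 (limma, Benjamini-Hochberg), whereas 10 of all 12602 genes did (0.0794%). That background includes sex-linked genes, and it was 0 of 12178 genes once those on X, Y and the mitochondrial genome were dropped. Voom on the recovered fragments also called 0 of them. The estimates nevertheless lay mostly on the negative side: 7 of 8 had a lower mean log2 level with MEKi, against 47.9% of all genes, and their median log2 fold change was -0.40, against 0.01 for all genes. Without adjustment, 3 of 8 had a limma p under 0.05 (Atf3, Fosl2 and Maff), all with the lower mean in MEKi hearts. In that direction 3.94% of all genes did so. A two-sided exact permutation test gave unadjusted p of 0.00794 for Atf3, 0.0238 for Fosl2 and 0.0873 for Maff. In 1 of the 9, Atf3, every MEKi heart was below every vehicle heart, a separation seen in that direction for 0.849% of the genes tested. Fold changes are differences of log2(FPKM + 0.1), which understates changes at low levels.

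**Figure D1:**
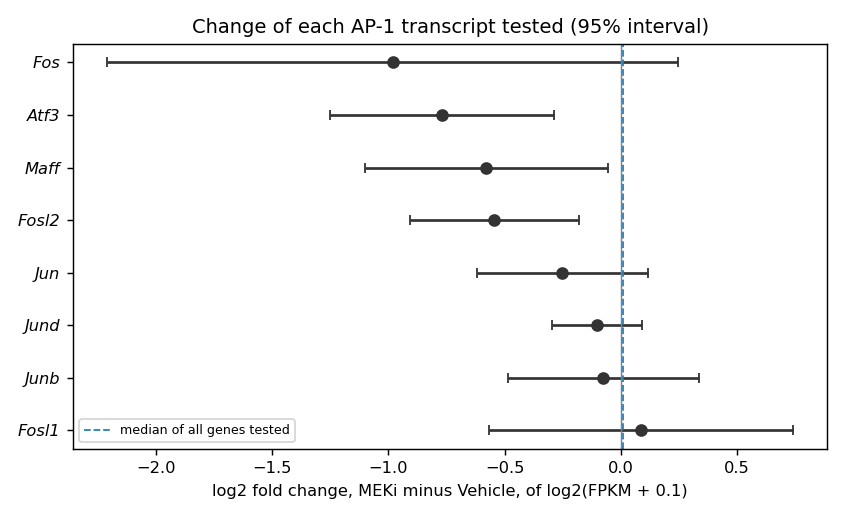
Log2 fold change (MEKi minus vehicle, of log2(FPKM + 0.1)) of the 8 AP-1 transcripts tested, with 95% intervals from limma over 5 hearts a group. The unadjusted intervals of Atf3, Maff and Fosl2 lie below 0, that of Fos is the widest, and the dashed line is the median of all genes tested (0.01).

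By level, the Jun family made up most of the AP-1 message. FPKM is per length, so levels can be compared between genes. In both groups the order of mean levels was Jund, Jun, Junb, Maff, Atf3, Fosl2, Fos, Fosl1 and Fosb. Jund stood clear of Jun in all 10 hearts, and Fosl1 stood clear of Fosb. Some neighbours were close: Fosl2 was above Fos in 7 of 10 hearts, and Fos above Fosl1 in 7 of 10. Jun exceeded Junb in 9 of 10 hearts, vehicle heart 1 being the exception. The 9 transcripts summed to between 69.7 and 77.2 FPKM in vehicle hearts and between 53.7 and 72.5 in MEKi hearts, with the 2 groups overlapping.

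The families held different shares of this sum. The Jun family held from 79.9 to 84.1% in the vehicle group and between 85.3 and 88.6% in the MEKi group. The summed Jun family level did not rise with that share. It ran from 58.6 to 62.7 FPKM (mean 60.9) with vehicle and from 46.7 to 61.9 FPKM (mean 55.4) with MEKi, which overlap. Atf3 and Maff together held from 9.86 to 13.8% with vehicle and from 7.11 to 9.36% with MEKi, and their summed level ran from 6.87 to 10.7 FPKM and from 4.83 to 6.13 FPKM. For both of these shares the groups did not overlap. How often shares of other gene sets separate in this way was not counted, and the Atf3 level alone already separated the groups. The Fos family held from 4.66 to 6.32% and from 3.64 to 6.19%, which overlap. Shares of a fixed total move against each other, so these are not separate observations, and they were not tested.

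**Figure D2:**
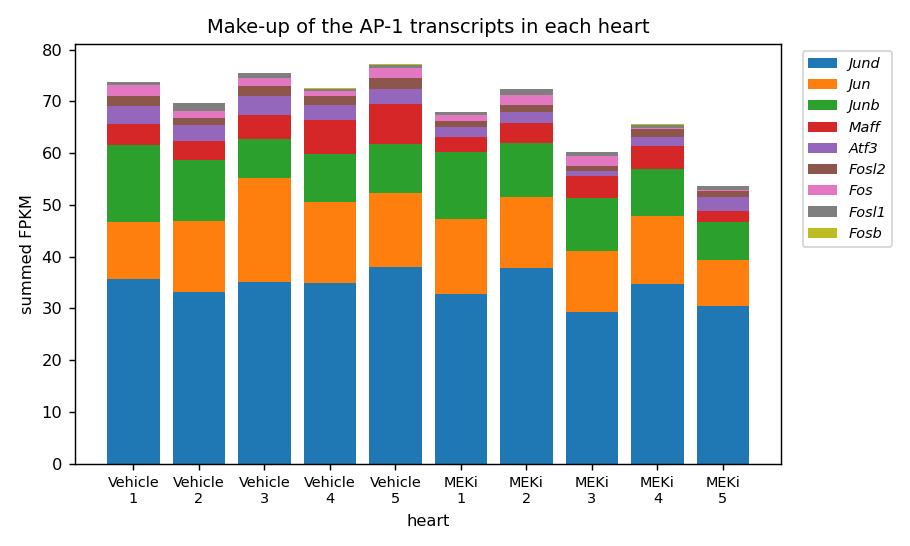
Summed FPKM of the 9 AP-1 transcripts in each heart, stacked by gene. Jund, Jun and Junb fill from 79.9 to 88.6% of every bar, and the Fos family never exceeds 6.32%.

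Jund, which is expressed steadily in many resting tissues and is known in the heart for restraining hypertrophic growth, was the most abundant and the least variable of the group. Its levels in vehicle hearts 1 to 5 were 35.6, 33.1, 35.1, 34.9 and 38.0 FPKM, and in MEKi hearts 1 to 5 they were 32.8, 37.8, 29.2, 34.8 and 30.4 FPKM. The groups overlapped, with 3 MEKi hearts below every vehicle heart. With a log2 fold change of -0.10 the interval included 0 (95% interval -0.30 to 0.09, adjusted p = 0.820 by limma). It was -0.025 on the TPM scale, -0.15 without MEKi heart 2 and -0.061 without MEKi heart 3. Its residual SD between hearts of a group, 0.12 on the log2 scale, was larger than that of only 5.57% of the genes tested.

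Jun, the founding member and the most active of the family in transcription, showed 11.01, 13.7, 20.1, 15.6 and 14.2 FPKM in the vehicle hearts. In MEKi hearts it showed 14.6, 13.7, 11.9, 13.1 and 8.90 FPKM. Vehicle heart 3 was the highest and MEKi heart 5 the lowest, and the other 8 hearts overlapped. The log2 fold change was -0.25 ± 0.17 (SE; limma adjusted p = 0.759), and without MEKi heart 5 it was -0.14. An antisense gene that overlaps Jun by 689 bases, Junos, had from 2 to 14 fragments per heart, against 446 to 910 for Jun.

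Junb, an immediate early gene that often opposes Jun, overlapped widely between the groups. Vehicle hearts had 15.01, 11.8, 7.58, 9.33 and 9.50 FPKM, and MEKi hearts had 12.9, 10.4, 10.2, 9.16 and 7.33 FPKM. Vehicle heart 1 was the highest and MEKi heart 5 the lowest, with full overlap in between. The log2 fold change was -0.07 (95% interval -0.48 to 0.33, limma adjusted p = 0.953), and it turned to 0.058 without vehicle heart 1, to 0.030 without MEKi heart 5 and to 0.0029 on the TPM scale. The last 351 bases of the Junb model overlap Prdx2 on the other strand, an abundant gene with a mean of 159 FPKM, and the strand setting of the counting is not given in the sources used here.

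**Figure D3:**
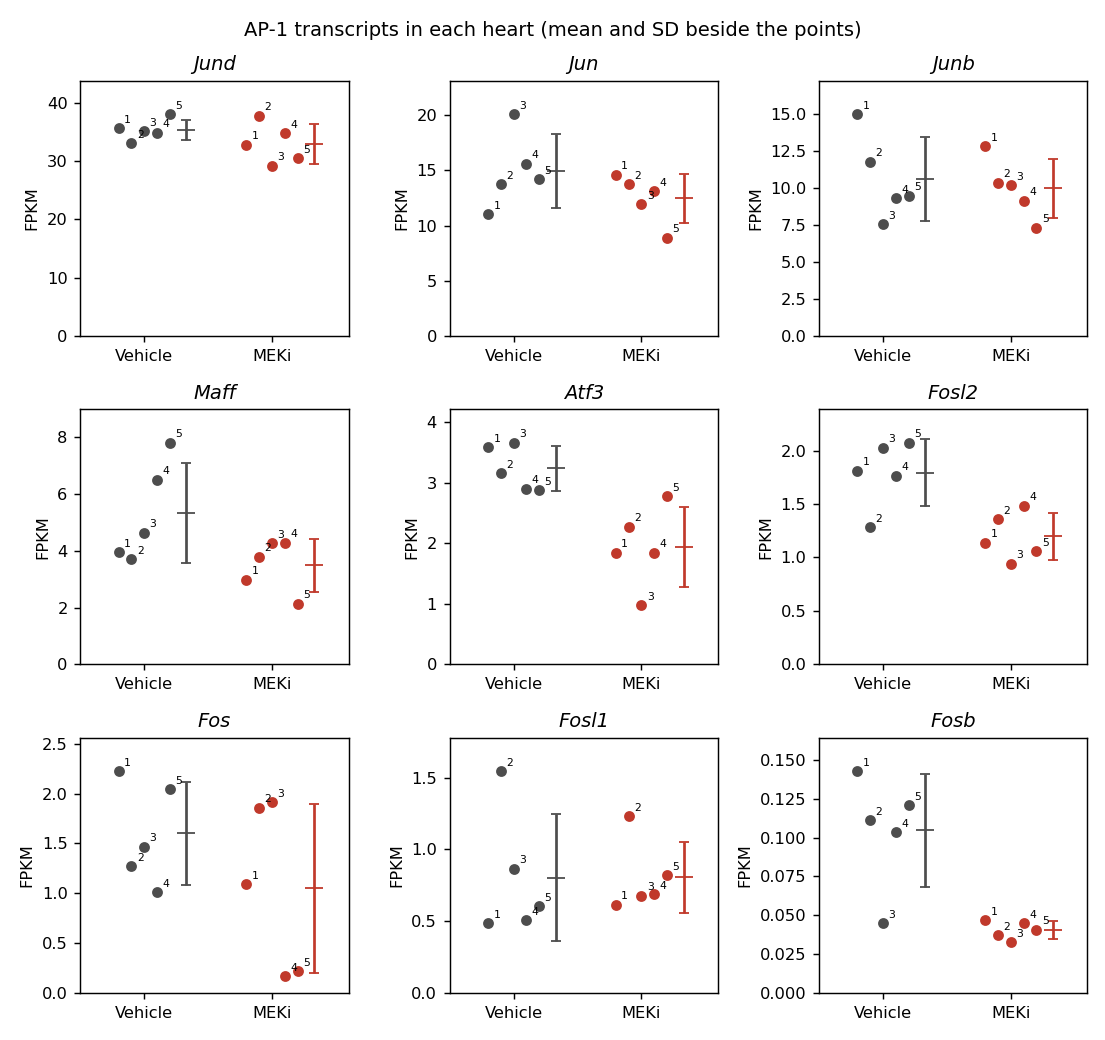
FPKM of each AP-1 transcript in vehicle (grey) and MEKi (red) hearts, numbered by replicate, with the mean and SD of 5 hearts beside the points. Each panel has its own axis from 0. For Atf3 all 5 MEKi points lie below the vehicle points, for Fos MEKi hearts 4 and 5 stand apart near 0, and for Fosb only vehicle heart 3 reaches the MEKi range.

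Atf3, a stress-induced factor that represses many of its targets and pairs with Jun proteins, was the member with the clearest separation. Vehicle hearts 1 to 5 had 3.59, 3.16, 3.66, 2.90 and 2.87 FPKM, and MEKi hearts 1 to 5 had 1.84, 2.27, 0.980, 1.84 and 2.78 FPKM. Every MEKi heart was below every vehicle heart, but the gap between MEKi heart 5 and vehicle heart 5 was small, with 94 and 90 fragments behind the 2 values. The mean went from 3.23 ± 0.372 to 1.94 ± 0.662 FPKM (SD, n = 5), a log2 fold change of -0.77 ± 0.22 (SE). This did not pass the adjustment (limma adjusted p = 0.413), and Atf3 ranked at 138 by p among all genes. On the TPM scale the 2 groups of Atf3 overlapped. Vehicle hearts spread by 11.5% of their mean, close to the 9.83% that counting alone gives, whereas MEKi hearts spread by 34.1%, against 11.99% from counting.

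Fosl2, the Fos protein known for a part in tissue fibrosis, came next in the order of p. Its levels in vehicle hearts were 1.81, 1.28, 2.03, 1.77 and 2.07 FPKM. In MEKi hearts they were 1.14, 1.36, 0.943, 1.48 and 1.06 FPKM. Vehicle heart 2 alone reached into the MEKi range, and all 5 MEKi hearts were below the vehicle median. Its fold change on the log2 scale, -0.54 ± 0.17 (SE), had an adjusted p of 0.459 (limma). Left without vehicle heart 2, the groups no longer overlapped and the fold change had its lowest value, -0.65.

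Maff, a small Maf protein without a transactivation domain of its own, was at 3.96, 3.72, 4.64, 6.51 and 7.81 FPKM in vehicle hearts. MEKi hearts had 2.99, 3.797, 4.28, 4.29 and 2.13 FPKM. Vehicle hearts 4 and 5 were the highest and MEKi hearts 1 and 5 the lowest, and the middle 6 hearts overlapped. Its log2 fold change of -0.58 ± 0.24 (SE) had a limma adjusted p of 0.606. It was -0.43 without vehicle heart 5 and -0.42 without MEKi heart 5. The 2 highest hearts were also those with the most red cell RNA, and the part of that RNA in this result was not tested.

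Fos, whose promoter is the textbook target of ERK signalling, had the widest spread. Vehicle hearts had 2.22, 1.27, 1.47, 1.008 and 2.04 FPKM. MEKi hearts had 1.09, 1.86, 1.91, 0.166 and 0.216 FPKM. MEKi hearts 4 and 5, with 7 and 8 fragments, were far below the other 8 hearts, which had from 33 to 88 fragments and in which MEKi hearts 1 to 3 sat within the vehicle range. The log2 fold change was -0.98 (95% interval -2.21 to 0.25, limma adjusted p = 0.715). Without MEKi heart 4 it was -0.57 and without MEKi heart 5 it was -0.63. With a pseudocount of 1 in place of 0.1 it was -0.43, nearer 0 than Atf3 (-0.55) and Maff (-0.48). The residual SD of Fos, 1.05, was larger than that of 97.3% of genes tested, and the 80.8% spread of its MEKi values was well above the 15.8% that counting alone gives.

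Fosb, a close relative of Fos that is induced with it, was nearly silent. It had 15, 10, 4, 9 and 11 fragments in vehicle hearts and 5, 4, 3, 5 and 4 in MEKi hearts. These correspond to 0.143, 0.111, 0.0451, 0.104 and 0.121 FPKM and to 0.0467, 0.0373, 0.0327, 0.0448 and 0.0408 FPKM. Only vehicle heart 3 reached the MEKi range. A two-sided exact permutation test of the 2 groups gave p = 0.0159, unadjusted, where 0.00794 is the smallest p that 5 hearts against 5 allow. With every detected gene in the fit, its log2 fold change of -0.52 had an adjusted p of 0.704 (limma). The size of that value depends on the pseudocount of 0.1, which is close to the Fosb levels themselves. With a pseudocount of 1 the difference was -0.086, and the ratio of mean FPKM, MEKi over vehicle, was 0.386. At a mean of 9.8 and 4.2 fragments per heart, the depth limits what can be said of its level.

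Fosl1, the Fos family member most closely tied to sustained ERK activity in cultured cells, was the exception in direction. Vehicle hearts had 0.487, 1.54, 0.865, 0.505 and 0.604 FPKM, and MEKi hearts had 0.615, 1.23, 0.678, 0.688 and 0.820 FPKM. Heart 2 was the highest of each group and the groups overlapped fully. Between 12 and 38 fragments lay behind each value. The estimate was a log2 fold change of 0.09 (95% interval -0.57 to 0.74, limma adjusted p = 0.963), and 4 of its 21 alternative values were below 0.

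**Figure D4:**
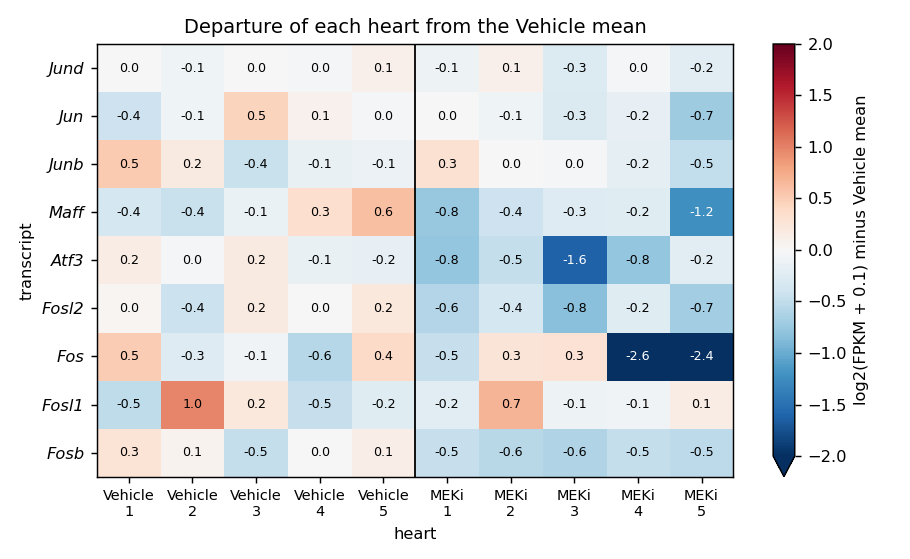
Departure of each heart from the vehicle mean of the same transcript, on the scale of log2(FPKM + 0.1), for the 9 AP-1 transcripts ordered by level. Blue is below and red above the vehicle mean. The darkest cells are Fos in MEKi hearts 4 and 5 and Atf3 in MEKi heart 3, and MEKi heart 4 is the one MEKi heart below the vehicle mean for every transcript.

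Different hearts were at the extremes for different members. The highest of the 10 hearts was vehicle heart 1 for Junb, Fos and Fosb, and vehicle heart 2 for Fosl1. It was vehicle heart 3 for Jun and Atf3, and vehicle heart 5 for Jund, Maff and Fosl2. The lowest was MEKi heart 3 for Jund, Atf3, Fosl2 and Fosb, MEKi heart 5 for Jun, Junb and Maff, and MEKi heart 4 for Fos. For Fosl1 the lowest was vehicle heart 1, the same heart that was highest for Fos. MEKi heart 3, lowest for Atf3, was the highest of its group for Fos. Which group held the highest or the lowest heart was not counted over all genes, and the members share the same 10 libraries.

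MEKi heart 5 stood apart in other bZIP genes. Atf5, a leucine zipper factor of the mitochondrial and integrated stress responses, was at 301 FPKM there and from 31.0 to 50.2 in the other 9 hearts. Atf4, the main transcription factor of the integrated stress response, was at 85.7 FPKM there and from 28.5 to 43.3 in the others. Ddit3, a stress-induced dimer partner named after its values were seen, was at 26.1 FPKM in that heart, above the 9.03 to 16.8 of the others. Without this heart the median log2 fold change of the AP-1 transcripts tested was -0.28, 0 were called, and Atf3 had its lowest value, -0.91. The part of this stress pattern in the AP-1 results was not tested.

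A list of other bZIP genes, among them partners of AP-1 proteins, did not share the negative median. Of the 25 listed, 22 were tested, 10 had a lower and 12 a higher mean with MEKi, 0 were called, and the median log2 fold change was 0.02. Nfe2l1, a regulator of proteasome genes that was above Atf5 in every heart but MEKi heart 5, had a log2 fold change of 0.11. Cebpb, an inflammatory and stress factor, had -0.25. Crem, a cAMP-responsive factor named after its values were seen, was the 1 gene of the list with an unadjusted p under 0.05 (log2 fold change -0.35, limma adjusted p = 0.619).

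The genes upstream of AP-1 were also centred near 0. All 21 kinases, ternary complex factors and serum response cofactors were tested, with 10 lower and 11 higher means, 0 called and a median log2 fold change of 0.04. The 4 most abundant were Mapk3 (ERK1) at -0.02, the serum response factor Srf at 0.09, and the drug's own targets Map2k2 at 0.04 and Map2k1 at 0.13 on the log2 scale. Rps6ka2, a kinase downstream of ERK named after its values were seen, had the only unadjusted p under 0.05 (-0.52, limma adjusted p = 0.401). Trametinib blocks kinase activity, which these transcript levels do not measure.

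Other immediate early genes also had a negative median. Of 19 listed, 16 were tested, 11 had a lower and 5 a higher mean with MEKi, 0 were called, and the median log2 fold change was -0.32. An unadjusted p under 0.05 was seen for 9 of them, 8 with the lower mean in MEKi hearts. All genes together had 7.62% in either direction and 3.94% lower, and 47.9% had a lower mean of any size. The 4 most abundant were Klf2, an endothelial flow-responsive factor (-0.14), the matrix protein gene Ctgf (0.10), Ier3 (0.10) and Ier2 (-0.50). Egr1, a zinc finger factor induced through the same ternary complex route as Fos and named after its values were seen, averaged 4.54 ± 2.32 FPKM with vehicle and 1.99 ± 0.773 with MEKi (SD, n = 5), with overlap. Its log2 fold change was -1.08 ± 0.35 (SE; limma adjusted p = 0.478). Nr4a1, an orphan nuclear receptor also named after its values were seen, had -1.03 and adjusted p = 0.585. Cyr61, a secreted matrix protein of the same list that was likewise named with its values known, lay the other way at 0.38.

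Among 20 known AP-1 target genes, 17 were tested, 14 with a lower and 3 with a higher mean under MEKi, and the median log2 fold change was -0.39. None was called, and 6 had an unadjusted p under 0.05, 5 of them lower, beside 7.62% of all genes in either direction and 3.94% lower. A lower mean of any size was seen for 47.9% of all genes. Mt1, a metal-binding metallothionein, was at 219, 228, 246, 214 and 279 FPKM in vehicle hearts and at 161, 152, 128, 181 and 119 FPKM in MEKi hearts. Its groups did not overlap, and the log2 fold change was -0.69 ± 0.13 (SE; limma adjusted p = 0.125). Of the other abundant targets, Vegfa, the endothelial growth factor, had 0.10, Gja1, the gap junction protein connexin 43, had 0.56, and the collagenase Mmp2 had -0.02. Of the 13 target genes with a RefSeq promoter, 6 contained TGANTCA (Gja1, Il6, Mmp13, Mmp3, Mt2 and Plaur). The same letters were in 7.81% of all promoter entries. These genes were listed because they are known AP-1 targets, so that count is no separate observation. Mt1 contained TGACG and no TGANTCA.

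The 6 heat shock genes respond to heat and to other protein-folding stress. All 6 had lower means in the MEKi group (median log2 fold change -0.50). Of them, 0 were called and 2 had an unadjusted p under 0.05, both lower. Over all genes, 47.9% had a lower mean and 3.94% were lower with an unadjusted p under 0.05. Hspb1 and Hspa8 were the most abundant (-0.33 and -0.19), followed by Hsph1 (-0.57) and Dnajb1 (-0.42). Its median lay on the same side as that of the immediate early genes, and its part in their values was not tested.

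**Figure D5:**
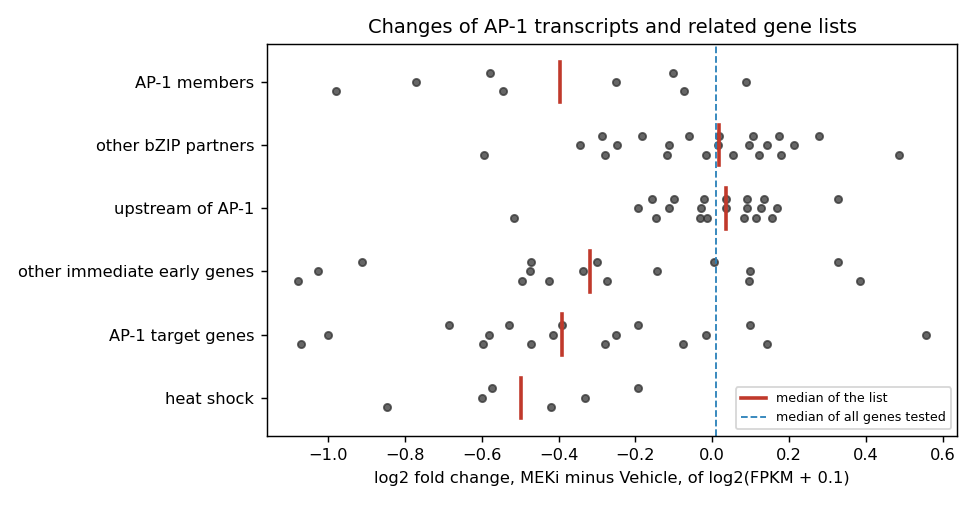
Log2 fold change (MEKi minus vehicle, of log2(FPKM + 0.1)) of every tested gene in 6 lists, with the list median in red and the median of all genes dashed. Medians are -0.40 for the AP-1 transcripts, -0.32 for other immediate early genes, -0.39 for AP-1 targets and -0.50 for heat shock genes. They are 0.02 for the other bZIP genes, labelled as partners, and 0.04 for upstream genes.

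Blood and immune cell markers also differed in level between hearts. Neutrophils express several AP-1 genes, and all 4 of the neutrophil markers tested had a lower mean with MEKi (median log2 fold change -1.87). Their summed level ran from 11.5 to 93.1 FPKM in the vehicle group and between 3.12 and 18.0 in the MEKi group, with vehicle heart 5 the highest, and the defining marker Ly6g was at 0 in every heart. The 6 macrophage markers likewise all had a lower mean (median -0.36), summing to 104 to 184 FPKM and to 100 to 120 FPKM. An unadjusted p under 0.05 was seen for 2 of the neutrophil and 2 of the macrophage markers, all lower. Over all genes, 3.94% were lower at that level and 47.9% had a lower mean of any size. Without vehicle heart 5, Atf3 had a log2 fold change of -0.81, Fosl2 -0.49 and Maff -0.43, and the median over the AP-1 transcripts tested was -0.35. The part of these cells in the AP-1 values was not tested. Of the cardiomyocyte markers, 7 of 8 had a higher mean with MEKi (median 0.14). Endothelial and fibroblast markers had medians of -0.14 and -0.13, smooth muscle and pericyte markers -0.28, and the few lymphocyte markers tested 0.04. Adipocyte, red cell and atrial markers ranged widely between single hearts, with medians of 0.82, -0.90 and -2.23, and no gene of any cell marker list was called.

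Likeness to other genes was read within groups. Once the mean of each group was taken off the log2 levels, the 3 most similar of 10698 other genes over the 10 hearts were found for each tested member by Pearson's r, and up to 3 are named. Fos went with Armcx1 (r = 0.90, Spearman's rho = 0.90) and Tmem267 (r = 0.89). Jun went with Pdlim5 (r = 0.96, rho = 0.93), Kdm3a and Lix1, and Junb with Haghl (r = 0.99, rho = 0.99), Zfp513 and Sh3tc1. Jund went with Nup133 (r = 0.93), Lpcat4 and Atp6v1c1. Atf3 went with Bop1 (r = 0.91), Esd and Cc2d1b, and Maff with Medag (r = 0.96), Galnt15 and Cdh19. Fosl2 went with Zfp646 (r = 0.92), Rbm5 and Plekhf1, and Fosl1 with Slc27a4 (r = 0.90), Zfp35 and Zfp672. The AP-1 genes were left out of the genes searched, so this says nothing of likeness between members. None of the genes named recurred between members. The points share libraries, depth and cell make-up, and these genes were picked as the highest of many correlations over 10 hearts.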

How the data were processed

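Poly(A) RNA from 10 hearts was sequenced. The authors deposited FPKM per gene, and the labels name fastp, STAR 2.5, HTSeq 0.6.1 and mm10. Coordinates matched GRCm38 for 98.3% of 54409 genes with a GENCODE M21 identifier. FPKM multiplied by gene length gave whole multiples of 1 step (tolerance 0.01) for 100% of values, which gave fragments. The library size implied by that step differed from the summed fragments, for example 14218190 against 15371692 in vehicle heart 3. How it was set is not given in the sources used here. Groups and replicate numbers came from the labels. The members and lists were chosen with earlier results of these data known.

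Log2(FPKM + 0.1) was fitted with limma 3.58.1 in R 4.3.3 (lmFit, eBayes with a trend), two-sided with Benjamini-Hochberg adjustment, wherever the mean over all hearts reached 0.5 FPKM. The threshold was 0.05. Fosb was compared by an exact permutation test, which was also run for the other members. Summaries used Python 3.11.15 with numpy 2.4.6 and pandas 2.3.3. The labels call each heart a biological replicate.

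Genes named are the 9 members, up to 4 of the most abundant of each list discussed and any past the threshold, the 3 most similar to each tested member, Rit1 and the sex-linked transcripts. Any other name was chosen after its values were known, as the text says. Some genes that this choice covers are not reported here. Promoters came from RefSeq. Alternatives covered pseudocounts, filters, TPM, quantile scaling, eBayes, array weights, voom, sex-linked and mitochondrial genes, the replicate block and leaving out each heart. A second voom scaling and an overlap count outside the mitochondrial genome were chosen after seeing the data. Counting errors cover counting only.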

Additional observations from a re-analysis of the deposited data

Results flagged for a closer look

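Among the 9 AP-1 genes and the most abundant genes of 5 related lists, 29 genes in 58 groups of 5 hearts were examined for a heart far from the rest of its group. Atf5 in MEKi heart 5 was at 301 FPKM, while the other 4 MEKi hearts had from 31.0 to 40.3. Atf4 in the same heart was at 85.7 FPKM, while the other 4 had from 28.5 to 36.2. Chance alone picks out about 1 in 20 such groups, or 2.9 of 58. No AP-1 gene had such a heart, Fos included, because 2 hearts were low together.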

How the results depend on the processing

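In all 22 alternatives 0 AP-1 transcripts were called. Atf3, Fosl2, Maff, Fos, Jun and Jund kept a negative log2 fold change in every alternative that tested them, and Atf3 ranged from -0.91 to -0.55 with adjusted p (limma) from 0.290 to 0.717. Fosl1 turned to -0.092 with array weights, -0.038 without vehicle replicate 1, -0.028 without vehicle replicate 4 and -0.061 without MEKi replicate 2. Junb turned to 0.0029 on the TPM scale, 0.058 without vehicle replicate 1 and 0.030 without MEKi replicate 5. When single hearts were left out, Fosl1 ranged from -0.061 to 0.33 and Junb from -0.19 to 0.058. The median over the members was -0.10 at a mean of at least 5 FPKM, where only the 3 Jun family genes remained, and from -0.46 to -0.28 when single hearts were left out. The count of members whose groups did not overlap was 0 on the TPM scale and from 1 to 2 when single hearts were left out. It rose to 2 without vehicle replicate 2 (Fosl2), without vehicle replicate 3 (Fosb) and without MEKi replicate 1 (Fosb). Over all genes tested that count rose as well, from 207 to 305, 458 and 310. Leaving out a heart cannot make separate groups overlap, so the count of members could only stay or rise there. Over all genes, 10 were called as reported, 0 once genes on X, Y and the mitochondrial genome were dropped (924 at unadjusted p under 0.05), 2 at a mean of at least 5 FPKM, 18 with array weights, and from 5 to 13 when single hearts were left out. The lowest, 5, came without vehicle replicate 2. The cause of these moves was not tested, apart from the smaller sets of genes. With the replicate block 4 genes and 0 members were called. Same-numbered hearts did not deviate together (correlations of -0.02 to -0.15), so the numbers were not taken as pairs, and no heart correlated best with its own number. The exact permutation p of Fosb was 0.00794 to 0.0238. Fosb, Fosl1 and, in MEKi hearts 4 and 5, Fos are limited by low fragment counts.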
